A study of Mus musculus with 5 samples.

Results

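S100a4, S100a6, Anxa2 and Lgals3 are 4 of the 11924 genes listed in single-cell count tables from 5 libraries of mouse CD4 T cells. They were taken by name, as a group of S100, annexin and galectin genes, and all 4 are listed in each library. S100a4 and S100a6 encode small calcium-binding proteins of the S100 family that change shape on binding calcium and then bind partner proteins, among them non-muscle myosin for S100a4 and annexins for S100a6. Anxa2 encodes annexin A2, a protein that binds membrane phospholipids in the presence of calcium, pairs with S100a10 and links membranes to actin. Lgals3 encodes galectin-3, a lectin that binds beta-galactosides on glycoproteins inside and outside the cell. In T cells these genes are low in naive cells and are known as part of the program of activated, memory and tissue-homing cells, and regulatory T cells (Tregs) with an effector phenotype share that program.

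The cells carry the SMARTA transgenic T cell receptor on the C57BL/6 background and were sorted as CD4+CD45.1+ cells. The naive library was made from spleen, and the remaining 4 libraries came from the inguinal lymph node on the tumor side, taken on day 8 after tumor cells were implanted. Of these, the untreated library carries no treatment in its title. The antibody library came from mice given anti-CTLA4 on days 0, 2 and 5. Another library is labelled Treg-depleted, for diphtheria toxin on days 0 and 2, and the last is labelled with both treatments. The growth protocol names MC38 tumor cells and the treatment protocol a PyMG tumor, so the tumor is unclear. The labels name no toxin receptor allele, and an isotype antibody mentioned in the series text is tied to no library. Each group is 1 library, so no test between groups was possible. All intervals are exact 95% intervals that cover counting error only, and a difference between libraries may include differences between animals or preparations.

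The libraries held 1099 to 7955 cells with a median of 1683 to 5208.5 unique molecular identifiers (UMIs, each standing for 1 captured transcript) per cell. Foxp3 levels among the sorted cells ran opposite to the depletion label. Sorted CD4+CD45.1+ cells cannot show whether Tregs of the animals were depleted, which was not tested. Foxp3, the lineage factor of Tregs, stood at 8.21 CPM (counts scaled to a common total per library) among naive cells, 7.84 among untreated cells and 4.25 with antibody, but at 379 in the library labelled Treg-depleted and 348 in the library labelled with both treatments. Cells with a Foxp3 UMI numbered 1284 of 2186 and 1649 of 4343 in those last libraries. Among cells deep enough to be thinned to 1000 UMIs they made up 59.1% and 40.5% there and 0.920% to 1.49% in the others. A UMI of the transgenic receptor genes Trbv13-1 or Trav14d-3-dv8 was found in 21.6% of Foxp3-positive and 56.0% of Foxp3-negative cells of the library labelled Treg-depleted, and in 18.8% and 52.1% with both treatments. Whether the Foxp3-positive cells carried the transgenic receptor was not tested. Of the 14 T cell markers looked up, 7 are listed. Cells with markers of B cells or myeloid cells were present in every library, and their share of the member UMIs is given beside the results it touches.

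S100a4 and S100a6 lie on the plus strand of chromosome 3 in the S100 gene cluster, at chr3:90603771-90606045 and chr3:90612882-90624181 (GRCm38, GENCODE M21), with 6836 bases and the unlisted gene S100a5 between them. Anxa2 lies at chr9:69453620-69491795 and Lgals3 at chr14:47367751-47386160, both on the plus strand. All 4 genes are protein coding. Of the 31-base stretches in the last 300 bases of the S100a4 transcripts, 272 of 482 (56.4%) also occur in Gm42674, an overlapping same-strand gene that is not listed, so reads of the pair could be split or dropped and the level of S100a4 is uncertain. No such stretch was shared for S100a6, Anxa2 or Lgals3. An unlisted antisense gene, Gm16144, overlaps Anxa2.

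The sequences upstream of the 4 start sites are shown because the levels of the S100 pair moved together across these libraries while Anxa2 departed from them. Each stretch is from RefSeq (GRCm38.p6), plus strand, 5′ to 3′, and begins 150 bases before the RefSeq start. It stops before the first base of those 150 that lies in an annotated exon of the gene. The stretches cover chr3:90603620-90603769, chr3:90612744-90612881, chr9:69453533-69453619 and chr14:47373710-47373812. The Lgals3 stretch lies inside the gene as GENCODE places it, from base 47367751 on. Capitals mark letters that match a searched motif.
S100a4 promoter: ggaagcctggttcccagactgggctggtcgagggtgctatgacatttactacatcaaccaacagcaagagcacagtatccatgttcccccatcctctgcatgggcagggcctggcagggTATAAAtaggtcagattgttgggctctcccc
S100a6 promoter: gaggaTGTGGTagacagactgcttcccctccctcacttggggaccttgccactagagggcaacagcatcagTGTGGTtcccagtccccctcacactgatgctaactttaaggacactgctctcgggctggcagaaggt
Anxa2 promoter: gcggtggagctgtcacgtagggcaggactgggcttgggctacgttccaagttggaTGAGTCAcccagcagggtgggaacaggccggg
Lgals3 promoter: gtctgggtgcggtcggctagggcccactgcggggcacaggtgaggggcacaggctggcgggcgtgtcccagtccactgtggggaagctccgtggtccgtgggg
The motifs searched on both strands of the 150 bases were the TATA box TATAAA, the AP-1 motif TGANTCA, the GC box GGGCGG and the Runx motif TGTGGT. S100a4 held TATAAA at -31, and S100a6 held TGTGGT at -145 and -79. Anxa2 held TGAGTCA at -95, and beyond the printed stretch TATAAA at -17 and GGGCGG at -48 and -24. Lgals3 held the GC box on the minus strand at -7, also beyond the printed stretch. The bases of the Anxa2 and Lgals3 windows beyond the printed stretches lie in annotated exons. Among 32851 windows of the same size, TATAAA occurred in 7.57%, TGANTCA in 4.24%, GGGCGG in 28.6% and TGTGGT in 8.40%. The neighbouring S100a4 and S100a6 windows shared none of these motifs. A match describes letters only.

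Levels of all 4 genes were low in the naive and untreated libraries, intermediate in the antibody library, and highest in the library labelled Treg-depleted. The library labelled with both treatments came just below it for every gene. S100a4 stood at 87.8 CPM (82.9 to 92.9) among naive cells, 49.1 (42.4 to 56.7) untreated, 183 (178 to 188) with antibody, 1087 (1071 to 1103) when labelled Treg-depleted and 832 (818 to 846) with both treatments. S100a6 stood at 120 (114 to 126), 91.0 (81.7 to 101), 447 (439 to 455), 4143 (4111 to 4174) and 2740 (2715 to 2765) CPM in the same order. Both S100 genes thus had their lowest CPM in the untreated library, and no neighbouring intervals overlapped. These intervals take UMIs as independent, and the 188 S100a4 UMIs of the untreated library came from 21 cells. They therefore do not settle the order of the naive and untreated libraries. By share of thinned cells S100a6 was not lower in the untreated library, at 2.97% against 2.89% of naive cells. Anxa2 stood at 34.5 CPM (31.5 to 37.7) naive, 49.1 (42.4 to 56.7) untreated, 280 (274 to 287) with antibody, 773 (760 to 787) when labelled Treg-depleted and 582 (571 to 594) with both. Lgals3 stood at 9.95 (8.35 to 11.8), 3.4 (1.81 to 5.81), 39.2 (36.9 to 41.6), 397 (387 to 407) and 382 (373 to 392) CPM. The last 2 Lgals3 intervals overlapped, and the ratio between those libraries was 0.962 (0.929 to 0.996), so their levels of galectin-3 RNA were close.

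Across the 4 tumor-side libraries the share of cells with a UMI followed the same order once each cell was thinned at random to 1000 UMIs, which removes differences in depth. S100a6 was seen in 2.89% of naive, 2.97% of untreated, 15.1% of antibody, 67.5% of Treg-depleted-labelled and 42.4% of both-treatment cells, against 3.65%, 4.92%, 27.7%, 80.5% and 51.5% of the same cells before thinning. S100a4 was seen in 2.04%, 1.30%, 5.85%, 36.6% and 23.0%, against 2.61%, 1.95%, 11.5%, 54.2% and 32.9% before thinning. Anxa2 was seen in 2.38%, 3.62%, 13.6%, 37.7% and 32.9%, against 3.65%, 7.89%, 29.8%, 66.3% and 55.0%. S100a6 was therefore seen in most cells of just the library labelled Treg-depleted after thinning. Lgals3 was seen in 0.409%, 0.0929% (1 cell), 1.84%, 18.3% and 13.5%, against 0.588%, 0.371%, 4.97%, 36.8% and 23.7%. The S100 transcripts were concentrated in the cells that had them: cells of the library labelled Treg-depleted with a UMI held on average 7.26 S100a6 and 4.03 S100a4 UMIs of 1000, against 1.73 for Anxa2 and 1.96 for Lgals3.

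**Figure D1:**
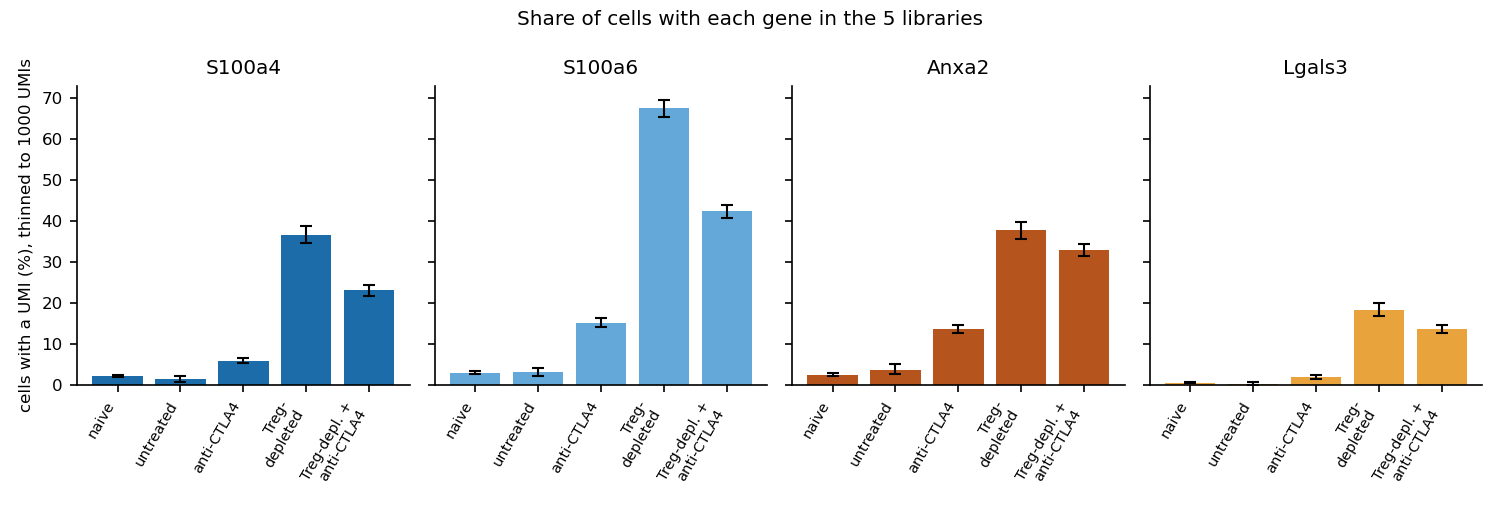
Share of cells with at least 1 UMI (vertical axis, percent) of S100a4, S100a6, Anxa2 and Lgals3 in the 5 libraries after thinning each cell to 1000 UMIs, with exact 95% binomial error bars. S100a6 reaches 67.5% of cells in the library labelled Treg-depleted, and every gene is under 4% in the naive and untreated libraries.

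The untreated library was compared with the naive library, as node cells against cells from spleen. Anxa2 was 1.42-fold higher (1.2 to 1.69) in the untreated library than in the naive library, whereas S100a4 was at 0.560 of its naive level (0.477 to 0.653) and S100a6 at 0.757 (0.672 to 0.850). Lgals3, on 13 against 137 UMIs, was at 0.341 (0.177 to 0.604). None of the 3 members above the minimum of 25 CPM and 30 UMIs was at least 2-fold higher, where 5.34% of all genes were. Myeloid, dendritic and B cells, called from their markers, held 84.6% of the untreated library's Lgals3 UMIs, 32.4% of its S100a4 UMIs and 4.26% of its Anxa2 UMIs, and 51.8% of the naive library's Lgals3 UMIs. Without those cells the log2 ratios were -1.27 for S100a4, -0.44 for S100a6, 0.87 for Anxa2 and -3.20 for Lgals3. That setting rests on 2 Lgals3 UMIs in the untreated library. Among cells with a receptor gene UMI the S100 genes turned direction, with log2 ratios of 0.40 for S100a4 and 0.30 for S100a6.

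Anti-CTLA4 without toxin was set against the untreated library, and all 4 genes were higher in the antibody library. From the CPM above, the ratio was 3.73 for S100a4 (3.22 to 4.34), 4.91 for S100a6 (4.42 to 5.48) and 5.71 for Anxa2 (4.94 to 6.63). All 3 exceeded 2-fold, where 2.65% of 6644 genes did, and their median log2 ratio was 2.30 against -0.07 over all genes. Lgals3 was below the CPM minimum at 11.5-fold (6.72 to 21.7). Without the myeloid, dendritic and B cells, which held 21.8% of S100a4, 19.3% of Lgals3, 4.79% of S100a6 and 2.74% of Anxa2 UMIs in the antibody library, the log2 ratios were 2.13, 2.49, 2.56 and 5.94 in the order S100a4, S100a6, Anxa2 and Lgals3.

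Of the tested relatives of the members, S100a11 and Lgals1 passed 2-fold between these libraries. Over all 6644 tested genes 176 were at least 2-fold higher. S100a10, the partner of annexin A2, was 1.65-fold higher with antibody and S100a11 was 2.18-fold higher, so that 1 of 4 tested S100 relatives passed 2-fold. Lgals1, which encodes galectin-1, was the 1 of 4 tested galectin genes to pass, at 2.16-fold, and 0 of 4 other annexins did. Of 11 tested membrane repair genes Ahnak alone passed, at 2.49-fold, and of 19 tested effector genes 2 did, among them Vim, the filament protein vimentin, at 2.40-fold. Of 15 tested naive genes 4 were at least 2-fold lower, including Igfbp4 at 0.205 and Dapl1 at 0.411 of the untreated level, and over all 6644 tested genes 88 were. These lists were chosen with earlier results of the data known.

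The 2 libraries labelled with toxin were each compared with the same untreated library, which the antibody comparison shares too. S100a6 was 45.5-fold higher (41.0 to 50.8) in the library labelled Treg-depleted and 30.1-fold (27.1 to 33.6) with both treatments. S100a4 was 22.1-fold (19.2 to 25.7) and 16.9-fold (14.7 to 19.7) higher, and Anxa2 15.7-fold (13.6 to 18.3) and 11.9-fold (10.3 to 13.8). Anxa2 had the smallest ratio of the 4 in both. Lgals3 was 117-fold (68.3 to 220) and 112-fold (65.7 to 211) higher, against an untreated level of 13 UMIs. All 4 passed 2-fold in each comparison, where 6.98% and 6.18% of genes did. The members' median log2 ratio was 4.99 and 4.50, against -0.21 and -0.16 over all genes.

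These differences rest in part on Foxp3-positive cells. With every cell that held a Foxp3 UMI left out, the log2 ratios to the untreated library were 3.83 for S100a4, 4.54 for S100a6, 3.62 for Anxa2 and 6.62 for Lgals3 in the library labelled Treg-depleted, and 3.31, 3.70, 3.43 and 5.75 with both treatments. Each member stayed more than 2-fold higher there. Myeloid, dendritic and B cells held 0.595% to 2.00% of the member UMIs in the library labelled Treg-depleted and 0.154% to 1.19% with both. Summed B cell markers were higher in those libraries, at 5294 and 3325 CPM against 864 to 1657 in the others, with Blk at 0 in the former and Fcer2a at 0 in the latter. All 16 B cell markers are listed, and 7 of them, Ms4a1 and Pax5 included, were at 0 in the untreated library. Summed monocyte and macrophage markers, 15 of 17 listed, were at 491 to 635 CPM in all 5 libraries, with Csf1r, Adgre1 and C1qa among those at 0 in the untreated library. Summed dendritic cell markers, 8 of 11 listed, were at 370 to 682 CPM, with Flt3 and Xcr1 at 0 there and Fscn1 at 0 in the naive library as well. The part of these cells beyond the counts given was not tested.

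The gene lists around the members were counted in the same way. In the library labelled Treg-depleted S100a10 was 4.24-fold and S100a11 4.04-fold above untreated, 2 of the 3 tested S100 relatives. Lgals1 was 10.7-fold and Lgals7 13.2-fold higher, 2 of 5 tested galectin genes. No other annexin of 4 tested passed 2-fold upward, and Anxa5 was at 0.611 of the untreated level. Of 29 tested effector genes 21 were higher and 3 lower (median log2 2.40), including Itgae, the integrin chain CD103, at 203-fold. Of 15 tested naive genes 9 were lower and 2 higher, with Tcf7 at 0.185 and Dapl1 at 0.0927. Over all 6529 tested genes 783 were at least 2-fold lower. Of 13 tested Treg genes 10 were higher. Of 11 tested membrane repair genes 2 were higher, and their median log2 was -0.02. Among 10 genes for galectin-3 ligands and their glycans, 1 was higher and 3 lower, including the branching enzyme Mgat5 at 0.303 and the sialyltransferase St6gal1 at 0.348.

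With both treatments, every member was lower than in the library labelled Treg-depleted, by less than 2-fold. S100a6 was at 0.661 of that level (0.654 to 0.669), Anxa2 at 0.753 (0.733 to 0.773), S100a4 at 0.765 (0.748 to 0.783) and Lgals3 at 0.962 (0.929 to 0.996). None of 4 was 2-fold higher, where 1.21% of genes were. Foxp3-positive cells were also fewer, with 1649 of 4343 cells against 1284 of 2186. Against the antibody library the library with both treatments was higher by 9.75-fold for Lgals3 (9.14 to 10.4), 6.13-fold for S100a6 (6.01 to 6.25), 4.54-fold for S100a4 (4.39 to 4.69) and 2.08-fold for Anxa2 (2.02 to 2.14). All 4 passed, where 4.07% of genes did. Without Foxp3-positive cells those log2 ratios were 2.33, 1.39, 1.42 and 0.79, so Anxa2 then missed 2-fold.

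Within the library labelled Treg-depleted, S100a4 and S100a6 were the members that separated Foxp3-positive from Foxp3-negative cells most. S100a6 was 3.20-fold higher (3.05 to 3.37) and S100a4 2.73-fold (2.50 to 2.98) in the 1272 Foxp3-positive than in the 879 Foxp3-negative cells, after thinning. Anxa2 was 1.76-fold (1.56 to 1.98) and Lgals3 1.76-fold (1.5 to 2.07) higher. In the library labelled with both treatments the ratios were 4.61 for S100a6 (4.41 to 4.82), 3.73 for S100a4 (3.47 to 4.01), 3.41 for Lgals3 (3.0 to 3.88) and 1.21 for Anxa2 (1.11 to 1.32), over 1605 and 2354 cells. Anxa2 was thus the member nearest to equal between these classes in the second library. At least 2-fold were 2 of 4 members when labelled Treg-depleted, where 4.71% of genes were, and 3 of 4 with both treatments, where 6.8% were. Foxp3 status was read from all UMIs of a cell, so a Foxp3-negative cell may hold Foxp3 RNA that was not captured.

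Limiting the cells to those with a receptor gene UMI gave larger differences. The log2 ratios were 1.88, 1.99, 1.09 and 1.48 for S100a4, S100a6, Anxa2 and Lgals3 in the library labelled Treg-depleted, and 3.06, 2.94, 0.64 and 3.01 with both treatments. Among other genes, the granzyme gene Gzmb was 13.3-fold, Klrg1, a receptor of terminally differentiated cells, 9.77-fold and Itgae 8.31-fold higher in Foxp3-positive cells of the library labelled Treg-depleted. Lgals1 was 2.83-fold and S100a10 2.45-fold higher there, and Tcf7, a factor of naive and memory cells, was at 0.0301 of the Foxp3-negative level. Other galectin genes went the other way, with Lgals7 at 0.524 and the galectin-3 binding protein gene Lgals3bp at 0.424. Of 31 tested effector genes 15 passed 2-fold upward and 4 downward, and of 15 naive genes 0 and 8. Over all 6328 tested genes 298 passed upward and 464 downward. With both treatments the counts were 19 and 3 of 30 effector genes, and 445 and 728 of all 6547 tested genes.

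Cells were called cycling when at least 2 of 35 genes of the G2 and M phase list had a UMI after thinning. The full list of 54 genes called 81.6% to 90.1% of cells in every library, naive cells included, so genes with a UMI in 1% or more of naive cells were left out of it after this was seen. The call then covered 0.141% of naive, 5.48% of untreated, 25.7% of antibody, 40.4% of Treg-depleted-labelled and 30.7% of both-treatment cells. Cycling cells were deeper than the rest before thinning, for instance with a median of 10772.5 against 4732.5 UMIs among Foxp3-positive cells of the library labelled Treg-depleted.

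The members split by cycling state. Anxa2 and Lgals3 were higher in cycling cells in every library where they could be compared, and S100a4 and S100a6 were lower in cycling cells of the antibody library and the library labelled Treg-depleted. In the antibody library Anxa2 was 2.06-fold (1.83 to 2.32) and Lgals3 2.29-fold (1.59 to 3.29) higher in the 1172 cycling cells, S100a4 was at 0.714 (0.599 to 0.848) and S100a6 at 0.772 (0.696 to 0.856). There 2 of 4 members passed 2-fold, where 4.52% of genes did. With cycling called from a Mki67 UMI instead, the antibody log2 ratio of S100a4 was 0.31 in place of -0.49, so its direction depended on the call, while Anxa2 was at 1.01 and Lgals3 at 1.30. By the main call but without myeloid, dendritic and B cells, the antibody log2 ratios were -0.16 for S100a4 and -0.30 for S100a6. Anxa2 was then at 1.07 and Lgals3 at 1.67. In the untreated library just 59 cells were called cycling, and 6, 7 and 8 UMIs of S100a4, S100a6 and Anxa2 in them gave 2.53-fold (0.876 to 5.98), 1.49-fold (0.581 to 3.21) and 3.29-fold (1.33 to 7.09). At this depth 2 of 3 members exceeded 2-fold, where 5.73% of genes did, with intervals that include 1 for the S100 pair.

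In the library labelled Treg-depleted S100a4 was at 0.488 of its level in non-cycling cells (0.449 to 0.529) and S100a6 at 0.721 (0.692 to 0.751), and Anxa2 was 1.66-fold (1.49 to 1.85) and Lgals3 1.75-fold (1.52 to 2.02) higher. Of the 4, 0 passed 2-fold upward and 1 downward, where 6.54% and 6.39% of genes were. With both treatments S100a4 was at 0.890 (0.828 to 0.956), but S100a6 was 1.30-fold (1.25 to 1.35), Anxa2 1.37-fold (1.25 to 1.49) and Lgals3 2.55-fold (2.26 to 2.87) higher, and 1 of 4 passed 2-fold upward, where 6.2% of genes did. These totals mix Foxp3-positive cells, which were more often called cycling, with Foxp3-negative ones. Among cells with a receptor gene UMI in the library with both treatments, the log2 ratio was 1.30 for S100a4, which turned direction, and 1.59 for S100a6.

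Separated by Foxp3 status, the S100 pair was lower in cycling Foxp3-positive cells but not in cycling Foxp3-negative cells. Among Foxp3-positive cells of the library labelled Treg-depleted, S100a4 in cycling cells was at 0.304 (0.277 to 0.333) and S100a6 at 0.485 (0.464 to 0.507) of their levels in the 616 non-cycling cells. As levels, S100a4 was at 3.10 UMIs per 1000 in non-cycling and 0.944 in cycling cells, and S100a6 at 9.28 and 4.50. With both treatments S100a4 was at 0.393 (0.361 to 0.426) and S100a6 at 0.577 (0.552 to 0.603). Among Foxp3-negative cells the same ratios were 1.12 (0.931 to 1.34) and 1.15 (1.04 to 1.28) when labelled Treg-depleted, and 1.43 (1.23 to 1.67) and 1.85 (1.69 to 2.03) with both treatments. The difference between the Foxp3 classes was not tested. Calling cycling from Mki67 kept these directions, with S100a4 log2 ratios of -1.46 and -1.06 in Foxp3-positive and 0.55 and 1.07 in Foxp3-negative cells. The whole G2 and M list, which called most naive cells cycling, did not: in Foxp3-negative cells it gave log2 ratios of -0.36 and -2.02 for S100a4 and -0.71 and -1.35 for S100a6, the direction seen in Foxp3-positive cells. Among Foxp3-positive cells with a receptor gene UMI, no member passed 2-fold downward in cycling cells with both treatments. Of these cells 27.0% of 122 non-cycling ones held none of the 4 genes, against 17.3% of all 301. When labelled Treg-depleted the shares were 8.76% of 137 and 7.64% of 275.

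Anxa2 and Lgals3 did not follow that split. Anxa2 was higher in cycling Foxp3-positive cells by 1.30-fold (1.15 to 1.48) and 1.45-fold (1.27 to 1.66) in the libraries labelled Treg-depleted and with both treatments, and Lgals3 by 1.42-fold (1.19 to 1.69) and 1.42-fold (1.23 to 1.65). In Foxp3-negative cells Anxa2 was 2.08-fold (1.69 to 2.55) and 1.15-fold (0.984 to 1.35) higher, and Lgals3 2.01-fold (1.51 to 2.66) and 2.57-fold (2.02 to 3.24). In Foxp3-negative cells 2 of 4 members passed 2-fold upward when labelled Treg-depleted and 1 of 4 with both treatments, where 4.95% and 5.41% of genes did. In Foxp3-positive cells no member passed upward, where 8.33% and 6.92% of genes did, and 2 and 1 passed downward, where 6.35% and 5.36% did.

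**Figure D2:**
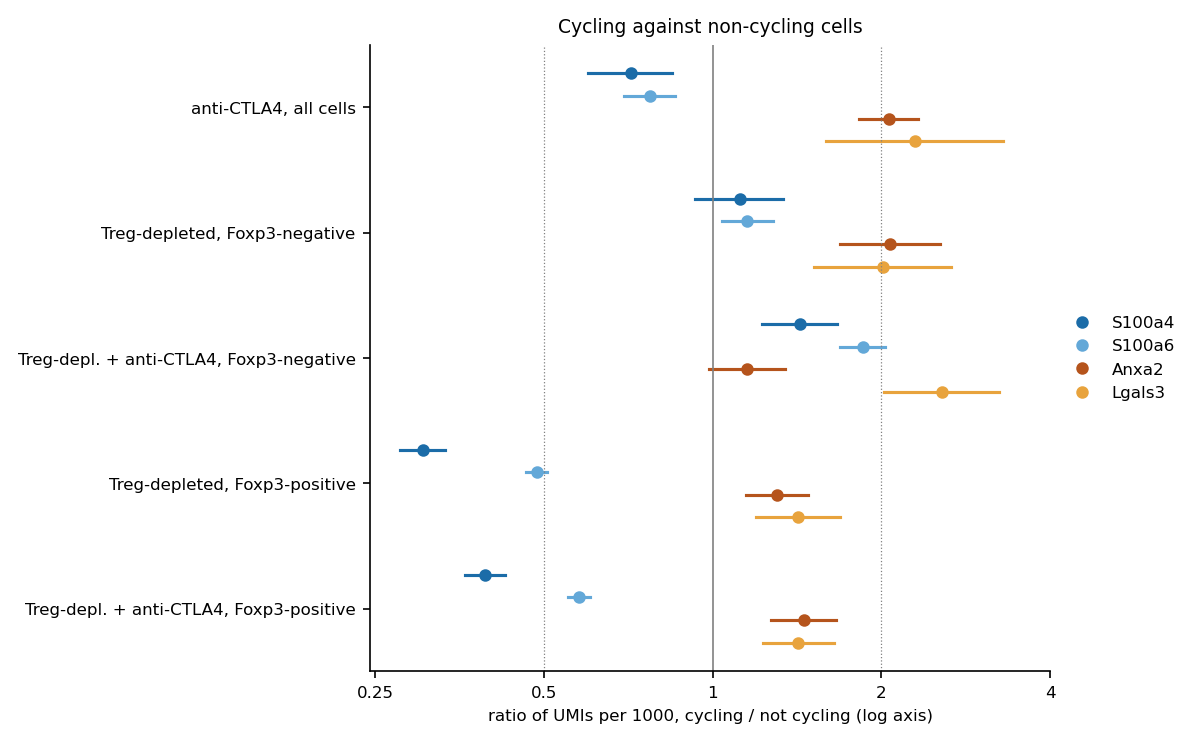
Ratio of the level in cycling to that in non-cycling cells (horizontal axis, log scale, exact 95% intervals) for the 4 genes in the antibody library and, by Foxp3 status, in the libraries labelled Treg-depleted and with both treatments. S100a4 and S100a6 lie below 1 in Foxp3-positive cells, at 0.304 and 0.485 when labelled Treg-depleted, and Anxa2 and Lgals3 lie above 1.

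Some effector genes were lower as well in cycling Foxp3-positive cells. In cycling cells of the library labelled Treg-depleted Gzmb was at 0.307 of its non-cycling level, the chemokine gene Ccl5 at 0.249, the chemokine receptor gene Ccr2 at 0.333 and Il10, the gene of an inhibitory cytokine, at 0.337. Of 29 tested effector genes 7 passed 2-fold downward and 1 upward, so 21 did not pass, and of 15 Treg genes 8 were lower and 0 higher. Over all 6027 tested genes 383 were lower. The other S100 genes did not pass 2-fold, with S100a10 at 1.00 and S100a11 at 0.790, so 0 of 3 tested did in either direction. Lgals1 was at 1.19, while Lgals7 and Lgals3bp were at 0.352 and 0.303. In Foxp3-negative cells with both treatments 13 of 29 effector genes were higher in cycling cells and 0 lower, with Klrg1 at 3.45-fold, Vim at 3.39-fold and Lgals1 at 2.79-fold. Over all 6658 tested genes 360 were higher there and 293 lower.

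**Figure D3:**
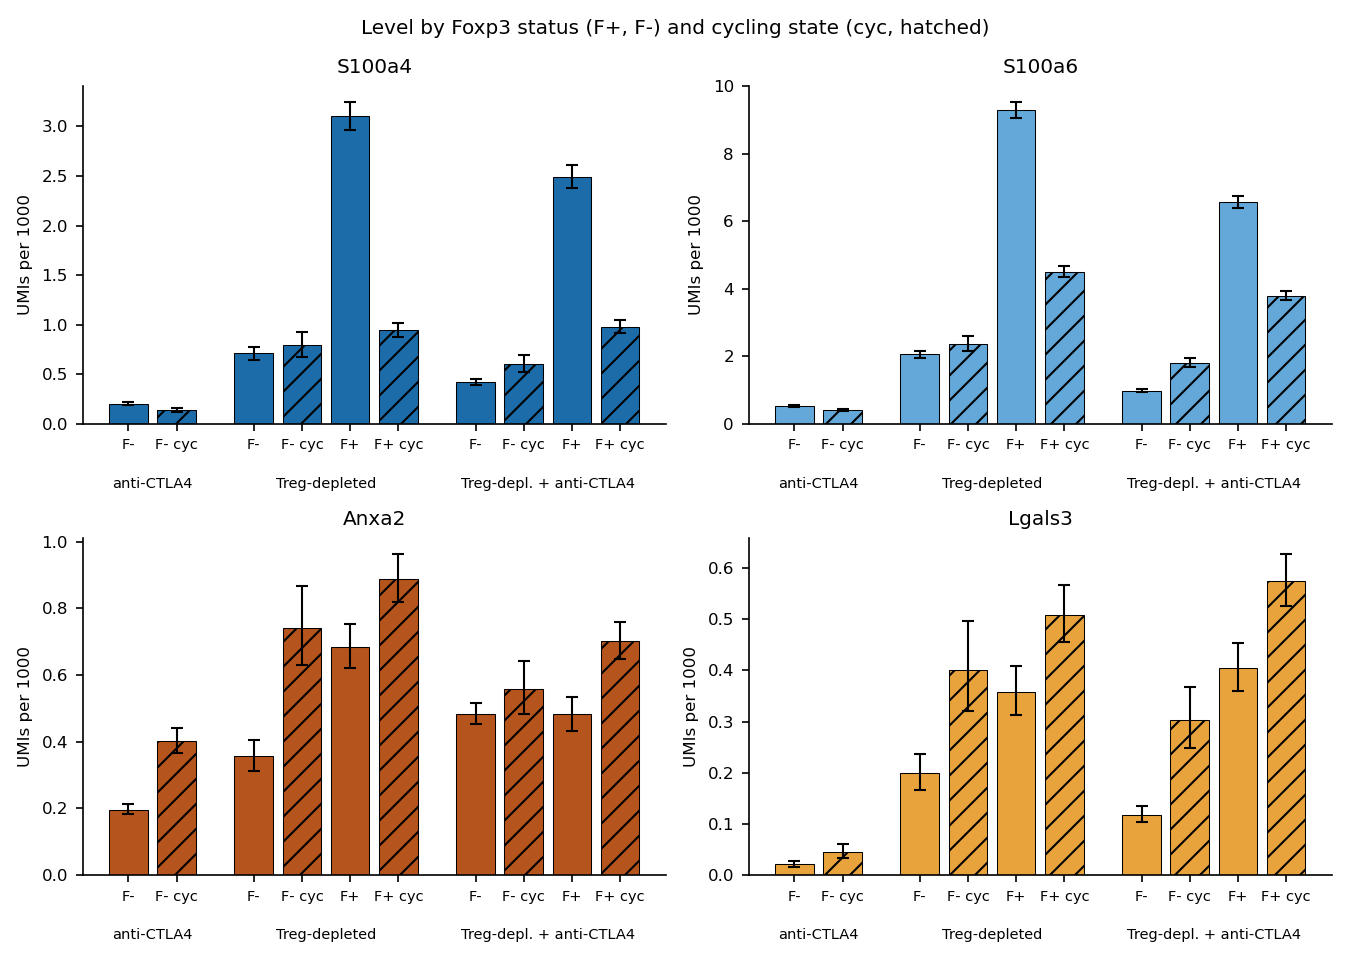
Level (vertical axis, UMIs per 1000 in thinned cells, exact 95% Poisson intervals) of the 4 genes by Foxp3 status and cycling state, with hatched bars for cycling cells, in the antibody library and the libraries labelled Treg-depleted and with both treatments. S100a6 is highest in non-cycling Foxp3-positive cells, at 9.28 when labelled Treg-depleted and 6.57 with both treatments.

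The libraries were then compared within Foxp3-negative cells that were not cycling, a class with no cell called Foxp3-positive or dividing. There S100a4 stood at 0.0409 UMIs per 1000 in the untreated, 0.199 in the antibody, 0.709 in the Treg-depleted-labelled and 0.422 in the both-treatment library. S100a6 stood at 0.0808, 0.516, 2.05 and 0.977. Anxa2 stood at 0.0419, 0.197, 0.357 and 0.484, and was thus the member whose highest level was with both treatments. Lgals3 stood at 0.000997 (1 UMI), 0.0214, 0.199 and 0.118.

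With antibody alone the ratio to untreated in this class was 4.87 for S100a4 (3.55 to 6.84), 6.38 for S100a6 (5.11 to 8.08) and 4.70 for Anxa2 (3.44 to 6.58). All 3 tested members passed 2-fold, where 0.991% of genes did. Lgals3, on 72 against 1 UMIs, was under the minimum at 21.5 (3.74 to 861). Among cells with a receptor gene UMI the log2 ratios were 1.68 for S100a4, 2.49 for S100a6 and 2.01 for Anxa2. Lgals3 was at 1.64 there, a lower bound with the floor of 3 UMIs in place of an empty untreated count. In the library labelled Treg-depleted the ratios were 17.3 (12.6 to 24.5), 25.4 (20.3 to 32.2), 8.52 (6.12 to 12.1) and 200 (35.3 to 7958) for S100a4, S100a6, Anxa2 and Lgals3. With both treatments they were 10.3 (7.54 to 14.5), 12.1 (9.68 to 15.3), 11.6 (8.49 to 16.2) and 119 (21.1 to 4702). All 4 passed in each, where 2.39% and 3.28% of genes did, and the Lgals3 intervals show how little the 1 untreated UMI fixes. Among cells with a receptor gene UMI the log2 ratios of both treatments to untreated were 1.67 for S100a4, 2.51 for S100a6 and 3.31 for Anxa2, smaller by over 1.5 times for the S100 pair but not for Anxa2. Lgals3 was at 4.1, again a lower bound from the floor of 3 UMIs, so it is not set against the whole class. Between untreated and naive cells the ratios were 0.693 for S100a4 (0.490 to 0.954), 1.07 for S100a6 (0.838 to 1.35) and 1.49 for Anxa2 (1.05 to 2.09), and 0 of 3 passed, where 4.53% of genes did. Among cells with a receptor gene UMI S100a4 turned direction there, with a log2 ratio of 0.90, and S100a6 was at 0.87.

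The members did not all differ in the same direction between the library labelled with both treatments and the library labelled Treg-depleted. In Foxp3-negative non-cycling cells S100a6 with both treatments was at 0.476 of the level when labelled Treg-depleted (0.444 to 0.510), Lgals3 at 0.593 (0.477 to 0.739) and S100a4 at 0.595 (0.531 to 0.667), whereas Anxa2 was 1.36-fold higher (1.18 to 1.57). Of the 4, 0 passed 2-fold upward and 1 downward, where 3.44% and 1.58% of genes did. In Foxp3-positive non-cycling cells Anxa2 was at 0.706 (0.611 to 0.815), S100a6 at 0.707 (0.681 to 0.735), S100a4 at 0.804 (0.753 to 0.857) and Lgals3 at 1.13 (0.946 to 1.35). No member passed upward there, where 1.74% of genes did. Among Foxp3-negative non-cycling cells with a receptor gene UMI the log2 ratios were -1.68 for S100a4, -1.74 for S100a6, 0.37 for Anxa2 and 0.01 for Lgals3, so the lower Lgals3 was not seen in them.

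Set against the antibody library, the library labelled with both treatments was higher in this Foxp3-negative class by 5.51-fold for Lgals3 (4.22 to 7.28), 2.46-fold for Anxa2 (2.23 to 2.72), 2.12-fold for S100a4 (1.91 to 2.35) and 1.89-fold for S100a6 (1.77 to 2.02). Of 4 members 3 passed, where 4.48% of genes did. The S100 part of this difference was not seen in cells with a receptor gene UMI: their log2 ratios were -0.01 for S100a4 and 0.02 for S100a6, against 1.30 for Anxa2 and 2.46 for Lgals3. In the same cells the log2 ratios of the library labelled Treg-depleted to untreated were 3.35, 4.25 and 2.93 in the order S100a4, S100a6 and Anxa2. Lgals3 was at 4.08, a lower bound with the floor of 3 UMIs in place of an empty untreated count. S100a11 was at 0.95 of its antibody level with both treatments in the whole class, Anxa5 was at 0.258, and the cytotoxic granule gene Nkg7 and the inhibitory receptor gene Lag3 were 39.8-fold and 7.68-fold higher.

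**Figure D4:**
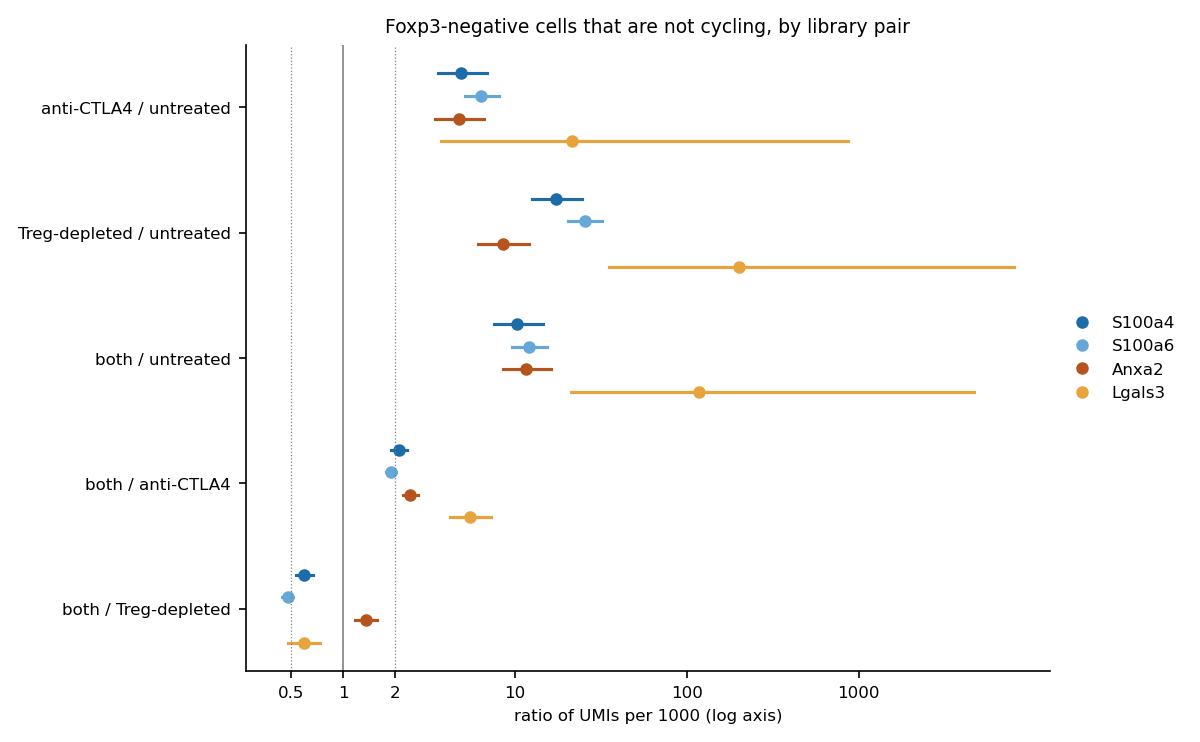
Ratio between libraries (horizontal axis, log scale, exact 95% intervals) of the 4 genes in Foxp3-negative cells that were not cycling, for 5 pairs of libraries. Between the libraries with both treatments and labelled Treg-depleted, Anxa2 lies above 1 at 1.36 and the other genes lie below it.

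Shares of cells were read against cells expected to hold little of the genes. These were Foxp3-negative, non-cycling cells with a UMI of Ccr7, a homing receptor gene of naive cells, and with no UMI of Il2ra, Cd44 or Ctla4, called Ccr7-marked cells. They are part of the class they are set against. In the naive library 0.400% of 4994 such cells had an S100a4 UMI, 0.821% S100a6 and 1.48% Anxa2 (median 1693 UMIs), all below the library's shares. In the antibody library 5.17%, 12.3%, 10.7% and 0.596% of 503 such cells (median 3340 UMIs) had S100a4, S100a6, Anxa2 and Lgals3, against 5.86%, 15.2%, 11.5% and 1.31% of all 3359 Foxp3-negative non-cycling cells (median 4157). The intervals overlapped for every member, so the shares did not separate the class from its Ccr7-marked part. These Ccr7-marked cells were themselves raised in the antibody library. Of them 81.1% held none of the 4 genes, against 97.5% in the naive library and 95.2% of 249 in the untreated library. An overlap therefore cannot show that a gene was absent. The Ccr7-marked cells with an S100a4 UMI held 3.73 of them on average and those with S100a6 held 4.31. When labelled Treg-depleted 4.92%, 31.1%, 19.7% and 2.46% of 122 Ccr7-marked cells (median 3184) had the genes, against 18%, 39.7%, 21.9% and 5.70% of 667 Foxp3-negative non-cycling cells (median 3550). Just the S100a4 intervals did not overlap there. With both treatments the shares were 3.78%, 11.8%, 20.6% and 0.840% of 238 (median 2033) against 8.33%, 16.2%, 30.1% and 4.09% of 2005 (median 2084), and the intervals overlapped for S100a6 alone. Shares whose intervals overlapped are not read as expression beyond this background, nor as absence of expression.

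Foxp3-positive cells of the libraries labelled Treg-depleted and with both treatments stood well above that background. Of the 616 non-cycling ones labelled Treg-depleted 89.3% had an S100a6 UMI, 64.0% S100a4, 39.3% Anxa2 and 22.1% Lgals3. Of 738 with both treatments 80.8%, 53.4%, 31% and 22.1% did. The few Foxp3-positive cells of the naive library went the same way, with an S100a4 UMI in 19.7% and an S100a6 UMI in 25.4% of 71. Those of the antibody and untreated libraries did not. In the antibody library 85.7% of 35 non-cycling Foxp3-positive cells held none of the 4 genes, against 76.0% of the Foxp3-negative ones. In the untreated library all 15 held none.

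Foxp3-positive cells also varied with Klrg1. Among non-cycling ones labelled Treg-depleted, S100a4 was seen in 74.7% of 316 cells with and 52.7% of 300 cells without a Klrg1 UMI (median 4931.5 and 4594 UMIs), and Lgals3 in 27.2% and 16.7%. Anxa2 was seen in 39.6% and 39.0%, so it did not vary with Klrg1 there. With both treatments S100a4 was seen in 64.1% and 48.4% of 234 and 504 cells, S100a6 in 90.6% and 76.2%, and Anxa2 in 36.8% and 28.4%. In Foxp3-negative cells the members varied with Il2ra, the gene of the interleukin-2 receptor alpha chain. When labelled Treg-depleted S100a4 was seen in 46.4% of 125 cells with and 15.3% of 754 without an Il2ra UMI, S100a6 in 77.6% and 37.4%, and Lgals3 in 27.2% and 4.91% (median 5560 and 3737.5 UMIs). With both treatments Anxa2 was seen in 33.2% and 29.8% of 286 and 2068 cells, while S100a4 was seen in 26.2% and 7.64%. The antibody library ran against this, with S100a6 in 4.41% of 68 cells with Il2ra and 15.3% of those without.

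The genes were found in the same cells. Among non-cycling Foxp3-negative cells with both treatments, S100a6 was seen in 75.4% of the 167 cells with an S100a4 UMI and 10.8% of the 1838 without, and Lgals3 in 33.5% and 1.41%. Anxa2 was the least tied to the others, at 42.5% and 28.9%. In naive cells S100a6 was seen in 64.3% of 143 cells with S100a4 and 1.49% of 7600 without, so the few naive cells with an S100a4 UMI mostly had S100a6 too. In the antibody library the shares for S100a6 were 61.4% and 12.3%, and for Anxa2 40.6% and 9.68%. These are descriptions of single libraries, and total RNA and cell identity vary between the cells.

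Counting how many of the 4 genes a thinned cell held, at least 2 were seen in 1.78% of naive, 1.39% of untreated, 8.69% of antibody, 51.9% of Treg-depleted-labelled and 32.3% of both-treatment cells. By Foxp3 status the share was 68.2% of positive and 28.4% of negative cells when labelled Treg-depleted, and 59.6% and 13.6% with both treatments. All 4 were seen in 9.36% and 7.66% of the Foxp3-positive cells. Cells with none made up 94.8% of naive and 93.8% of untreated cells, but 8.18% of Foxp3-positive cells labelled Treg-depleted.

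**Figure D5:**
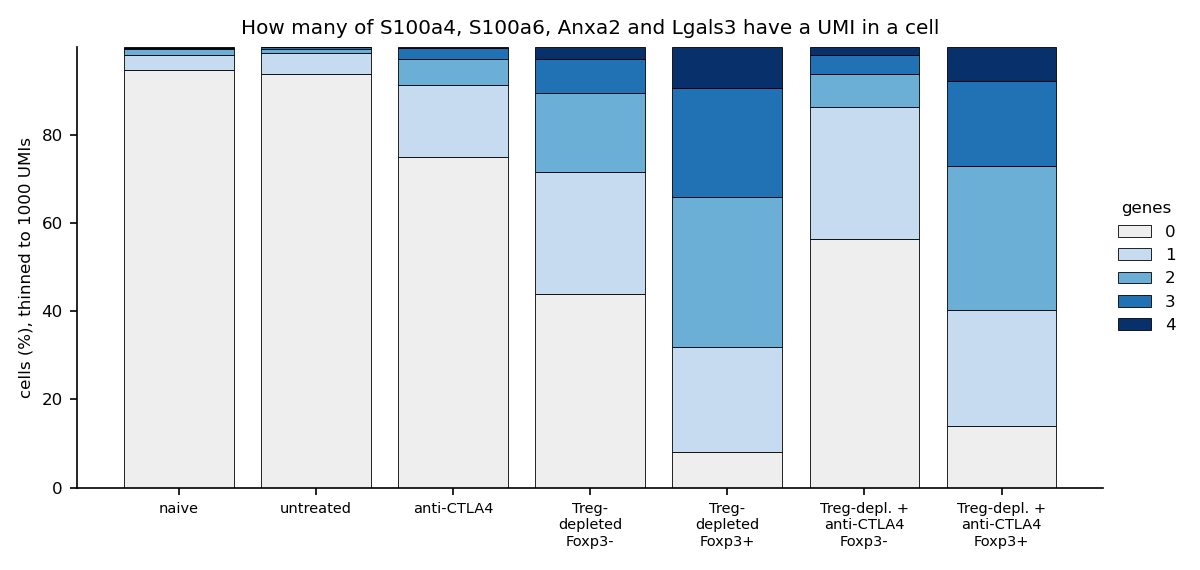
Share of thinned cells (axis in percent) that held a UMI of 0, 1, 2, 3 or 4 of the genes, stacked to 100, in 7 groups: the naive, untreated and antibody libraries and the Foxp3-negative and Foxp3-positive cells of the libraries labelled Treg-depleted and with both treatments. Cells with none fall from 94.8% in the naive library to 8.18% of Foxp3-positive cells labelled Treg-depleted.

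Cells with at least 2 members were compared with cells with none, as a description of the same cells that were chosen by the members. Fewer of the former had a receptor gene UMI. In Foxp3-negative cells the shares were 63.8% against 70.9% with antibody, 43.5% against 58.2% labelled Treg-depleted and 36.6% against 58.9% with both. In Foxp3-positive cells with both treatments they were 14.2% against 37.1%. The part of cell identity in the differences was not tested. Among Foxp3-negative non-cycling cells labelled Treg-depleted the 161 member-rich cells held interferon-induced membrane protein genes at far higher levels, Ifitm2 at 97.6-fold and Ifitm3 at 69.3-fold, with Gzmb at 31.4-fold and Ccl5 at 22.2-fold. Sox4, a factor of early T cells, was at 0.113. The plasma cell markers Mzb1 and Jchain had 0 UMIs in these member-rich cells, against 63 and 60 in the cells with none. With both treatments the 224 member-rich cells had Ifitm2 at 122-fold and Ifitm3 at 40.3-fold, and lower Sox4 at 0.217, Myb at 0.289 and Foxp1, a quiescence factor, at 0.317. In the antibody library the leading genes included Ccl5 at 78.4-fold and the myeloid signalling adaptors Tyrobp at 71.8-fold and Fcer1g at 67.5-fold. Once myeloid, dendritic and B cells were left out there, Gna15 at 48.4-fold, Ifitm3 at 22.9-fold and Zbtb32 at 14.9-fold led, and Nkg7 was 8.94-fold higher, with Sox4 again lower at 0.119. Foxp3-positive cells with both treatments differed by Tcf7 at 0.0171 and Id3 at 0.0284 of the member-poor level, and by Ccr2 at 7.96-fold, Gzmb at 5.03-fold and Lgals1 at 3.79-fold higher.

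The genes whose level varied most like each member were ranked by Pearson correlation of log2(CPM + 10) over 14 classes of cells and 6401 genes, where classes of 1 library share that library. S100a4 was most like Srgn (0.951), Atp2b4 (0.95) and Gzmb (0.948), and S100a6 most like S100a11 (0.983), Gna15 (0.968) and Runx2 (0.965). Lgals3 was most like Runx2 (0.938), Lgals1 (0.936) and Plac8 (0.936). Anxa2 stood apart, with the mitochondrial ribosomal gene Mrpl20 (0.927) and the proteasome gene Psmb4 (0.913) ahead of Lgals1 (0.911). Among the 6 pairs of members S100a4 and S100a6 were closest (0.981), and S100a4 and Anxa2 furthest apart (0.772). Anxa2 was closest to Lgals3 (0.924).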

How the data were processed

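Single-cell RNA was measured in 5 libraries, 1 per group, with a droplet kit that reads 3′ ends. The authors deposited 1 table of whole-number UMI counts for each library, with 11924 genes as rows and cells as columns. Tools named in the submitters' processing notes are Seurat 4.0.4 in R 4.1.1, Cell Ranger 6.0.0 and bcl2fastq 2.20, and the build is mm10. GENCODE M21 held 11809 of the gene symbols. Totals refer to listed genes, and library totals ran from 3825958 to 27967273 UMIs.

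Cells needed 200 genes and at most 10% mitochondrial UMIs, which removed 0 cells. No doublet caller was run, and doublets were kept. Barcodes shared between libraries numbered 0 to 10 per pair. UMIs were summed over cells and scaled to CPM for libraries, and cells were thinned to 1000 UMIs (seed 1) for states, which left out shallower cells and kept 7825, 1077, 4566, 2151 and 3959 in the order naive, untreated, antibody, Treg-depleted and both. Foxp3 status used all UMIs of a cell. A gene counted as called at 2-fold or more among genes with a mean of 25 CPM and 30 UMIs in total. Ratios carry exact conditional binomial, levels exact Poisson and shares exact binomial intervals, all 95%. Where one count of a ratio was empty, log2 ratios used a floor of 3 UMIs in its place. The Ccr7-marked class was defined after the data were seen. Intervals were tested on simulated data.

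The members and lists were chosen with earlier results of these data known. Genes named beside the members were list genes with the largest ratios, those most like each member, and, for member-rich cells, the 6 with the largest ratio each way; further list genes were named as family or context after their values were seen. The plan to call cycling from the whole G2 and M list of 54 genes was changed to 35 genes after the calls were seen. Alternatives covered scaling (TMM from edgeR 4.0.16), filters, thinning, cycling and Foxp3 calls, and cells left out. Python 3.11.15, numpy 2.4.6, scipy 1.17.1 and matplotlib 3.10.9 were used, with R 4.3.3 for TMM.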

Additional observations from a re-analysis of the deposited data

Results flagged for a closer look

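The values here differed in direction between 2 classes of cells or 2 pairs of libraries. With 1 library per group no difference was tested. Ratios are given with 1 meaning equal levels.

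Between cycling and non-cycling cells, S100a6 in the library labelled Treg-depleted was at 0.485 in Foxp3-positive cells and at 1.15 in Foxp3-negative cells. In the library labelled with both treatments the same ratio was 0.393 and 1.43 for S100a4, and 0.577 and 1.85 for S100a6. With cycling called from the whole G2 and M list, the Foxp3-negative ratios of both genes lay below 1 as well. With receptor gene cells alone, no member passed 2-fold downward in cycling Foxp3-positive cells with both treatments.

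Between the library with both treatments and the library labelled Treg-depleted, Anxa2 in non-cycling cells was at 0.706 in Foxp3-positive and 1.36 in Foxp3-negative cells.

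The antibody was compared without toxin (antibody against untreated) and with it (both treatments against the library labelled Treg-depleted). Over all cells S100a4 was at 3.73 without and 0.765 with toxin, S100a6 at 4.91 and 0.661, Anxa2 at 5.71 and 0.753, and Lgals3 at 11.5 and 0.962. In Foxp3-negative non-cycling cells S100a4 was at 4.87 and 0.595, S100a6 at 6.38 and 0.476, and Lgals3 at 21.5 and 0.593. Anxa2 was above 1 both times in that class and is not among these. The untreated library held 1 Lgals3 UMI in that class, and 11 of its 13 Lgals3 UMIs came from cells called myeloid, dendritic or B cells.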

How the results depend on the processing

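No paired analysis was possible because each group has 1 library. Scaling by TMM or size factors, adding 0.5 UMIs, other cell filters, and totals without mitochondrial or ribosomal genes moved 0 of 24 library ratios over 1.5-fold or across 2-fold. The mean CPM of single cells moved 2 of 24 over 1.5-fold, with S100a4 in the library labelled Treg-depleted against untreated at log2 5.11 in place of 4.47. The counts of members called (of 4) were as follows where they moved by over 1.5 times, and the cause of each shift was not tested. Cells holding 2 markers of another type numbered 1727 of 2186 labelled Treg-depleted, 2355 of 4343 with both treatments and 2041 of 4566 with antibody. They were 354 of 1099 untreated and 1039 of 7955 naive cells, so leaving them out dropped much of the treated libraries. With cells holding 2 markers of another type left out, untreated against naive had 1 higher in all cells and 1 in Foxp3-negative non-cycling cells, and both treatments against Treg-depleted had 1 higher in all cells and 0 lower in that class. The cycling comparison then had 1 higher and 0 lower (Treg-depleted), 2 higher (both), 0 higher (Treg-depleted, Foxp3-negative) and 1 higher and 0 lower (both, Foxp3-positive). With myeloid, dendritic and B cells left out, an alternative chosen after seeing the data, untreated against naive had 1 lower. Without cycling cells both treatments against Treg-depleted had 1 lower. Without cells with Foxp3 or Il2ra it had 1 lower, and both against antibody had 2 higher. At 500 UMIs the antibody cycling comparison had 0 higher.

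Without thinning, Foxp3-positive against negative (Treg-depleted) had 1 higher, and cycling had 1 higher (untreated), 1 higher (antibody), 0 higher (Treg-depleted, Foxp3-negative) and 2 lower (both, Foxp3-positive). At least 3 G2 and M genes gave cycling counts of 1 higher (Treg-depleted, Foxp3-negative) and 2 higher (both, Foxp3-negative). Calling from Mki67 gave 0 lower (Treg-depleted), 0 higher (its Foxp3-negative cells), 1 lower (its Foxp3-positive cells) and 2 higher (both, Foxp3-negative), and both against Treg-depleted in Foxp3-negative non-cycling cells had 0 lower. The whole G2 and M list gave 0 higher (untreated), 0 higher (antibody), 0 lower (Treg-depleted), 0 higher and 1 lower (both), 0 higher (Treg-depleted, Foxp3-negative), 1 lower (Treg-depleted, Foxp3-positive), 0 higher and 3 lower (both, Foxp3-negative) and 0 lower (both, Foxp3-positive). In Foxp3-negative non-cycling cells it gave 1 lower (untreated against naive) and 0 lower (both against Treg-depleted). Of ratios past 2-fold, it reversed Anxa2 in cycling untreated cells (log2 -0.085) and Lgals3 with both treatments (-0.35), in Foxp3-negative cells labelled Treg-depleted (-0.14) and with both (-1.48), and between untreated and naive Foxp3-negative non-cycling cells (0.54). The value of 0.54 had at most the 1 thinned Lgals3 UMI of the untreated library behind it, or the floor of 3 UMIs, so it gives no direction. Ratios under 2-fold turned too: S100a4 and S100a6 in cycling Foxp3-negative cells (-0.36 and -0.71 labelled Treg-depleted, -2.02 and -1.35 with both), S100a6 in cycling cells with both (-0.85), and S100a4 between both and Treg-depleted in Foxp3-negative non-cycling cells (0.63), among others.

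Foxp3 status read after thinning gave 1 higher for positive against negative (Treg-depleted), 1 higher and 1 lower for cycling in its Foxp3-negative and Foxp3-positive cells, and 2 lower for both against Treg-depleted in Foxp3-negative non-cycling cells. With receptor gene cells alone the counts were 4 higher for Foxp3-positive against negative (Treg-depleted). Cycling had 1 higher and 0 lower (Treg-depleted), 3 higher (both), 2 higher (both, Foxp3-negative) and 0 lower (both, Foxp3-positive). In Foxp3-negative non-cycling cells 1 was higher (untreated against naive) and 2 lower (both against Treg-depleted), and S100a4 both against antibody was reversed at log2 -0.012. Lgals3 untreated against naive came out at log2 1.08 there. That value used the floor of 3 UMIs in place of an empty untreated count, so it gives no direction. Without the deepest 2% of cells cycling had 0 lower (Treg-depleted) and 1 lower (its Foxp3-positive cells). In all, 53 counts moved by over 1.5 times, 12 changed by a smaller step and 507 stayed the same. These 12 concern both treatments against antibody, with 3 in place of 4 over all cells and 2 or 4 in place of 3 in Foxp3-negative non-cycling cells, and Foxp3-positive against negative (Treg-depleted), with 3 in place of 2. Ratios of single members left the interval of the reported ratio in 380 cases, changed sign past 2-fold in 7, the floored Lgals3 value included, and stayed within it in 727. Not run, with under 50 cells in a class, were 6 alternatives of the untreated cycling comparison and, with 2 markers of another type left out, Foxp3-positive cycling labelled Treg-depleted and Foxp3-positive both against Treg-depleted. Depth limits Lgals3 in the untreated library (13 UMIs) and the comparison of the 59 cycling untreated cells.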
